A study of Mus musculus with 12 samples.

Results

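Neurogenesis and brain development are described here through 19 Gene Ontology (GO) terms. A GO term is a named set of genes annotated to one process, structure or activity. The terms were taken by their names, which had to contain neurogenesis, nervous system, neuron differentiation, neuron development, generation of neurons, brain, glia or glio, and to contain none of synap, axon, dendrit or projection. They filled 70 of the 1076 rows of 8 tables of GO terms, and 19 of the 490 different terms in those tables. The names alone made the choice, but a term could enter only through a row in at least 1 table, and the tables list terms by p. Of the 19 terms, 5 have their only row in Del/+ up.

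The tables came from ChIP-seq of H3K4me3, a methyl mark on histone H3 that sits at the promoters of active genes, in the whole hippocampus of C57BL/6N mice at postnatal day 30. The 12 mice were 6 wt, 3 Kansl1+/- and 3 Del/+, and each mutant had 3 wt littermates among the 6. Del/+ mice lack 1 copy of the interval from Arf2 to Kansl1, which holds Kansl1 together with its neighbours. Kansl1+/- mice carry the tm1b(EUCOMM)Hmgu allele on 1 copy of Kansl1, a gene for a subunit of a histone acetyltransferase complex, and all descend from 1 ES cell clone. Both mutants model Koolen-de Vries syndrome, and both were set against the same 6 wt libraries. No treatment is named for any group.

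A neuron arises in steps. Progenitor cells commit to a neuronal fate, the newborn cell differentiates, and it then grows and shapes its processes. GO covers these processes with terms nested by breadth, so that nervous system development contains neurogenesis, which contains generation of neurons, neuron differentiation, neuron development and finally cell morphogenesis involved in neuron differentiation. In the postnatal hippocampus the dentate gyrus keeps producing neurons, but most neurons are already mature, and genes annotated to these terms include many that mature neurons go on using.

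The gene lists behind the tables were the genes whose promoters had more H3K4me3 in the mutant than in wt (Del/+ up, 512 genes, and Kansl1+/- up, 343 genes), those with less (Del/+ down, 343, and Kansl1+/- down, 483), and 4 clusters of the genes raised in either mutant. By the study's description, cluster 1 (160 genes) was raised in Kansl1+/- and not in Del/+, and cluster 2 (214) in both. By the same description, cluster 3 (212) was raised more in Del/+ and cluster 4 (162) specifically in Del/+. The clusters were cut from the same genes as the up lists, so the 6 lists are not independent of one another, and both mutants share their controls. The sizes are those that the tables imply. They count genes as tested for GO terms, not promoters, and need not equal the study's own counts of promoters. Lists were set side by side and no test was made between them. The tables give no values per mouse and no gene names. The depth of the libraries is unknown, the spread between mice cannot be given, and the hippocampal origin was not checked against marker genes. In whole tissue, a change in the share of a cell type and a change of the mark within cells cannot be told apart.

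For every term the tables count the genes of the list and the genes of a background of 23468 annotated genes. Fold is the number of list genes in the term over the number expected from the background share. The 95% intervals are exact (Clopper-Pearson) and take in nothing but counting error. A term was called when its one-sided exact hypergeometric p was below 0.05 after Bonferroni correction over 21172 terms. The tables list only terms with p below 0.00001 before correction, so all the folds are selected values. Genes without an H3K4me3 peak in hippocampus are part of this background. How far a shared activity of brain genes raised these folds was not tested.

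All 6 lists of raised genes held neurogenesis terms. The lists of lowered genes held none, but their tables list few terms of any kind, 2 for Del/+ down (0 called) and 14 for Kansl1+/- down (9 called). In Del/+ up all 19 terms were listed, a count that the 5 terms listed nowhere else help to fix, and 16 were called, beside 86.0% of the 250 terms listed for it. For Kansl1+/- up 12 were listed and 10 called, where 78.5% of all 302 listed terms were. Cluster 1 had 10 of 10 called (all listed terms, 81.1%), cluster 2 had 7 of 8 (73.1%), cluster 3 had 14 of 14 (80.8%) and cluster 4 had 5 of 7 (80.9%). With 1 gene fewer in the list count, or at a threshold of 0.01, the called terms were 15, 9, 7, 5, 12 and 5 in the same order. Summed over the 6 lists, 62 of 70 rows, or 88.6%, passed the correction. Beside 73.1% to 86.0% of all terms in the single tables, this count is not particular to the neurogenesis terms. They took up 11.2% of the terms listed for cluster 3, 7.87% in cluster 4, 7.69% in cluster 2, 7.60% in Del/+ up, 5.26% in cluster 1 and 3.97% in Kansl1+/- up.

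**Figure D1:**
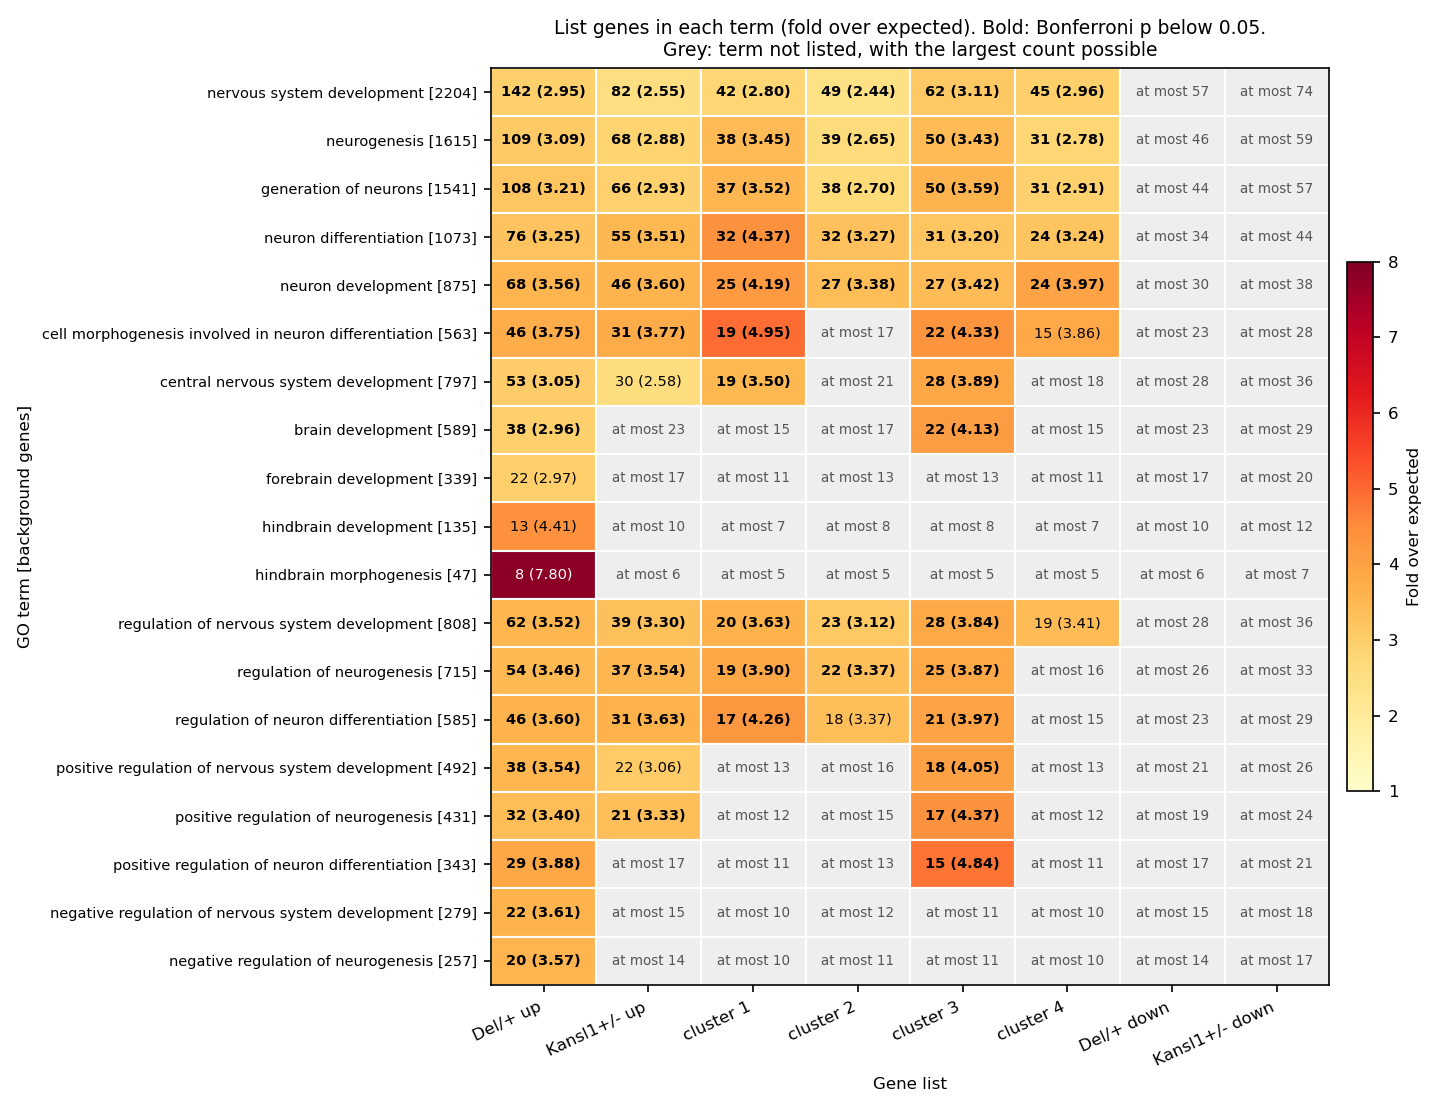
Gene counts and folds of the 19 GO terms (rows, background genes in brackets) in the 8 gene lists (columns), with colour for the fold over expected and bold type for terms called after Bonferroni correction. Grey cells mark terms without a row and give the largest count they can have. The first 5 rows are filled in 6 lists, and both columns of lowered genes are grey throughout.

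The widest term, nervous system development, holds 2204 background genes, or 9.39% of them. It took 142 genes of Del/+ up, 27.7% of the list (95% interval 23.9% to 31.8%), at 2.95-fold. It had the lowest p of all 250 terms in that list (exact hypergeometric test, Bonferroni p = 4.32e-29). In Kansl1+/- up it held 82 genes (23.9%, 19.5% to 28.8%) at 2.55-fold and ranked 15 of 302 by p. The clusters gave 42 genes in cluster 1 (2.80-fold), 49 in cluster 2 (2.44-fold), 62 in cluster 3 (3.11-fold) and 45 in cluster 4 (2.96-fold). Among the terms of its table it had rank 3 by p for clusters 3 and 4, rank 11 for cluster 2 and rank 34 for cluster 1. The folds thus spanned 2.44 to 3.11, and the intervals of all 6 lists overlapped.

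Neurogenesis, the making of cells of the nervous system, has 1615 background genes. It ran from 2.65-fold in cluster 2 (39 genes, 95% interval 1.93 to 3.50) to 3.45-fold in cluster 1 (38 genes, 2.53 to 4.52). Generation of neurons, its neuronal branch with 1541 background genes, covered nearly the same genes. It held 108 genes of Del/+ up, 66 of Kansl1+/- up, and 37, 38, 50 and 31 genes of clusters 1 to 4. Its folds ran from 2.70 in cluster 2 to 3.59 in cluster 3. Only 74 background genes lie in neurogenesis but outside generation of neurons, and each list held between 0 and 2 of them, with 0.505 to 1.61 expected. Counts this low cannot show whether glial genesis differs between the lists.

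Neuron differentiation, the maturing of a committed cell into a neuron, gave a different order. Its fold was highest in cluster 1, with 32 of 160 genes (20.0%, 95% interval 14.1% to 27.0%) at 4.37-fold. The next was Kansl1+/- up with 55 genes (16.0%) at 3.51-fold, followed by cluster 2 with 32 (3.27-fold), Del/+ up with 76 (3.25-fold), cluster 4 with 24 (3.24-fold) and cluster 3 with 31 (3.20-fold). Cluster 3 was thus the highest list for nervous system development and the lowest for neuron differentiation. The intervals of these 6 folds overlapped, from 3.08 to 5.92 in cluster 1 and from 2.22 to 4.40 in cluster 3.

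Neuron development, the later growth of the cell, held 68 genes of Del/+ up (3.56-fold), 46 of Kansl1+/- up (3.60-fold), 25 of cluster 1 (4.19-fold), 27 of cluster 2 (3.38-fold), 27 of cluster 3 (3.42-fold) and 24 of cluster 4 (3.97-fold). Cell morphogenesis involved in neuron differentiation, in which the neuron takes its shape, was listed in 5 lists. Cluster 1 again had its highest fold, 4.95 with 19 genes (95% interval 3.04 to 7.47), and Del/+ up the lowest, 3.75 with 46 genes (2.77 to 4.92). In cluster 4 its 15 genes did not pass the correction (exact hypergeometric test, Bonferroni p = 0.188). Cluster 2 has no row for this term, which allows at most 17 genes and 3.31-fold there. That limit lies inside the intervals of the 5 listed folds, so a lower fold in cluster 2 is not shown.

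**Figure D2:**
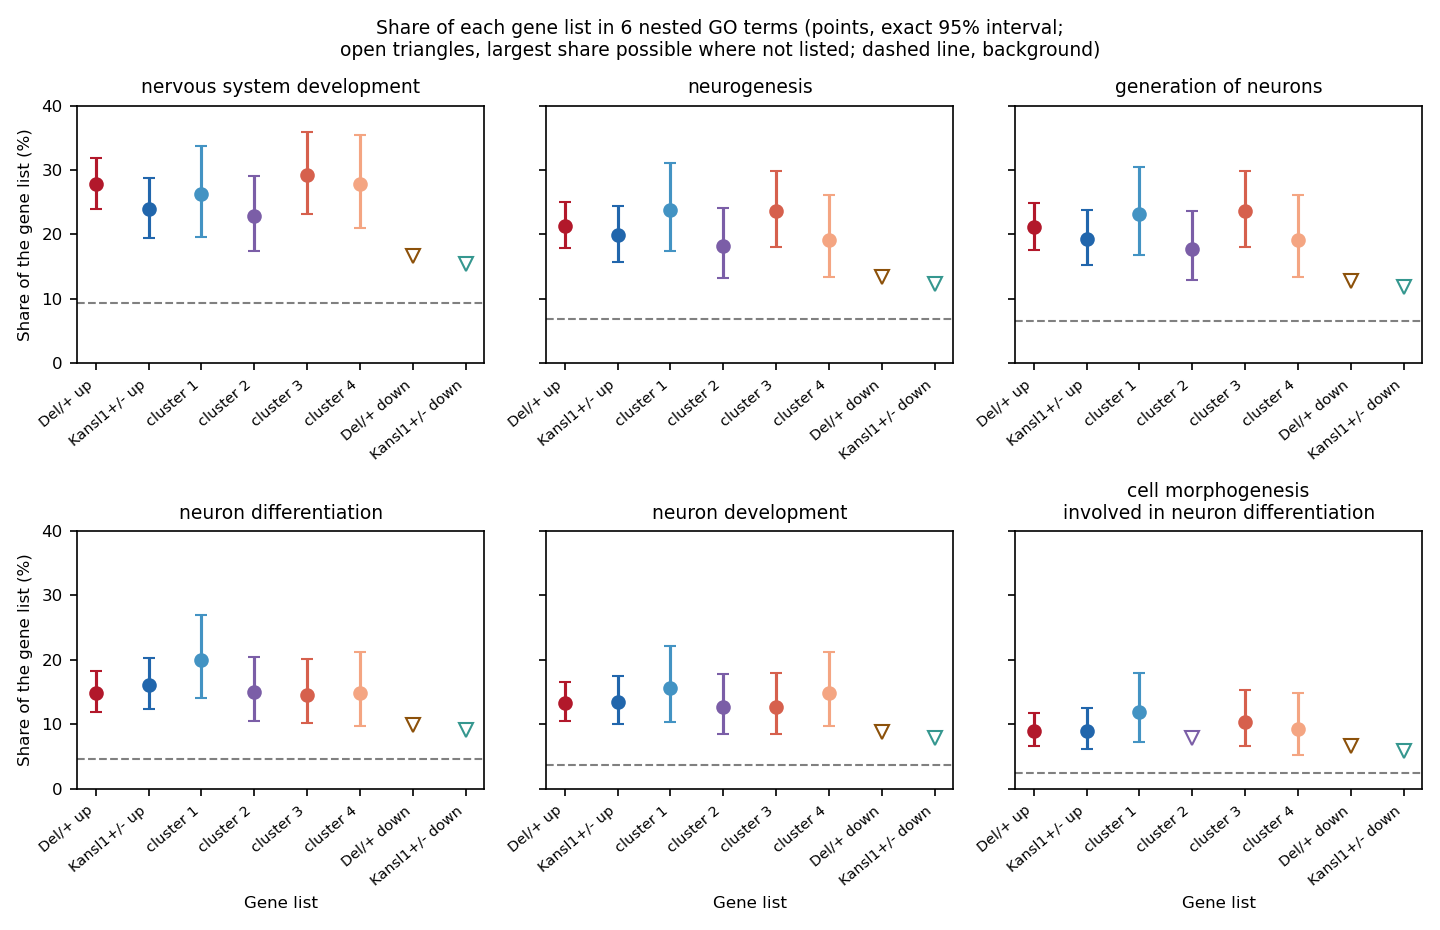
Share of each gene list (vertical axis, %) in the 6 nested terms from nervous system development to cell morphogenesis involved in neuron differentiation, with exact 95% intervals, the background share as a dashed line and open triangles for the largest share where a term is not listed. The share of nervous system development lies between 22.9% and 29.2% in the 6 lists of raised genes, and the triangles of both lists of lowered genes, where a listed term would have had to lie higher, are at 16.6% and 15.3%.

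The nested counts show how a list's genes divide between wide and narrow annotation, which is not an order in time. They assume that a wide term counts the genes of the narrow terms inside it, and 0 of 75 pairs of counts contradicted that. Of the nervous system development genes in cluster 1, 38 of 42 were neurogenesis genes (90.5%, 95% interval 77.4% to 97.3%), against 73.3% in the background. In cluster 4 the share was 31 of 45 (68.9%, 53.4% to 81.8%). The genes of nervous system development outside neurogenesis numbered 14 in cluster 4, where 4.07 were expected (3.44-fold), and 4 in cluster 1, where 4.02 were expected. Clusters 2 and 3 lay between, with 10 and 12 genes against 5.37 and 5.32, and the intervals of clusters 1 and 4 overlapped. Del/+ up had 33 of them against 12.9 expected, and Kansl1+/- up 14 against 8.61.

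At the second step cluster 3 had the lowest share. There 31 of its 50 generation of neurons genes were neuron differentiation genes (62.0%, 95% interval 47.2% to 75.3%), beside 69.6% in the background. The share was 86.5% in cluster 1 (32 of 37, 71.2% to 95.5%), 84.2% in cluster 2 (32 of 38, 68.7% to 94.0%), 83.3% in Kansl1+/- up (55 of 66, 72.1% to 91.4%), 77.4% in cluster 4 (24 of 31) and 70.4% in Del/+ up (76 of 108). Seen from the other side, generation of neurons genes outside neuron differentiation numbered 19 in cluster 3 against 4.23 expected, a fold of 4.49. The same genes were 5 against 3.19 in cluster 1, 6 against 4.27 in cluster 2 and 7 against 3.23 in cluster 4 (2.17-fold). Del/+ up had 32 against 10.2 (3.13-fold) and Kansl1+/- up 11 against 6.84 (1.61-fold). The intervals of cluster 1 and cluster 3 overlapped.

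At the next step, all 24 neuron differentiation genes of cluster 4 were neuron development genes (100%, 95% interval 85.8% to 100%), where the background share is 81.5%. Cluster 1 had the lowest share, 25 of 32 (78.1%, 60.0% to 90.7%). It had 7 genes of neuron differentiation outside neuron development, where 1.35 were expected (5.19-fold), and cluster 4 had 0 where 1.37 were expected. In all, 75 such shares of a wider term were computed, and 23 had an interval that left out the background share. Without the other wider terms tried in place of system development these numbers are 63 and 13, and 9 of the 13 used system development or cell differentiation. The rest were cluster 1 for neurogenesis, Kansl1+/- up and cluster 1 for neuron differentiation within generation of neurons, and cluster 4 for neuron development. Each of these steps was computed in 6 lists. The share of cluster 3 at the second step was not among them. The intervals were not adjusted for their number.

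**Figure D3:**
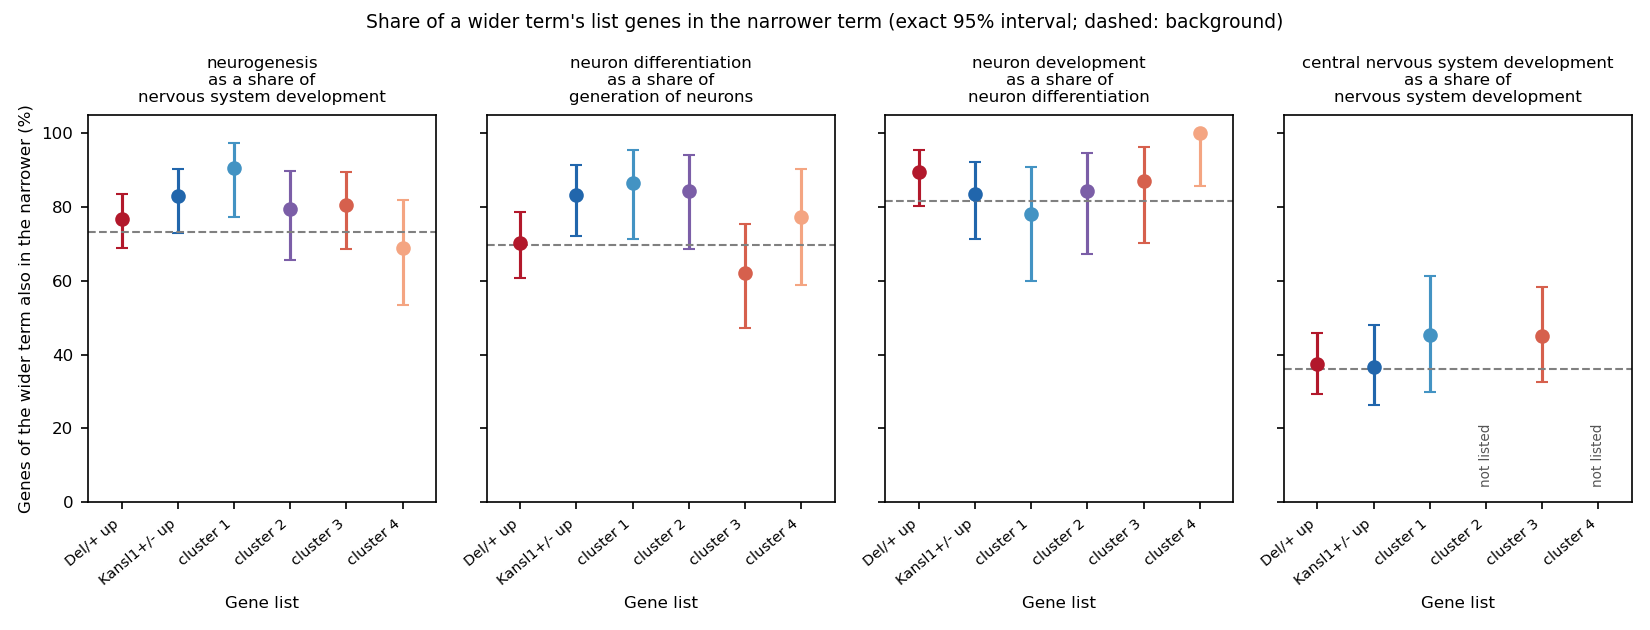
Share of the genes of a wider term that also belong to the narrower one (vertical axis, %) in the 6 lists of raised genes, with exact 95% intervals and the background share as a dashed line. Cluster 1 has the highest share in the first panel, 90.5%, and cluster 3 the lowest in the second, 62.0%.

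Nervous system development was next set against the rest of system development. System development has 4027 background genes, of which 54.7% are nervous system development genes. In Del/+ up the share was 142 of 189 (75.1%, 95% interval 68.3% to 81.1%) and in Kansl1+/- up 82 of 132 (62.1%, 53.3% to 70.4%). The clusters ran from 60.9% in cluster 1 (42 of 69, 48.4% to 72.4%) through 67.1% in cluster 2 (49 of 73) and 75.6% in cluster 3 (62 of 82) to 78.9% in cluster 4 (45 of 57, 66.1% to 88.6%). The background share lay inside the interval for Kansl1+/- up and cluster 1 and below it for the other 4 lists. For Kansl1+/- up this turned on the wider term, since its interval was 49.6% to 66.4% against a background of 47.6% with multicellular organismal development, and 48.4% to 65.2% against 45.7% with anatomical structure development. Cluster 1 kept the background inside its interval with both.

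System development genes that are not nervous system genes numbered 47 in Del/+ up against 39.8 expected, a fold of 1.18 (95% interval 0.878 to 1.55). In Kansl1+/- up they numbered 50 against 26.6 (1.88-fold, 1.42 to 2.42). Cluster 1 had 27 against 12.4 (2.17-fold, 1.47 to 3.04) and cluster 4 had 12 against 12.6 (0.954-fold, 0.500 to 1.62). Clusters 2 and 3 lay between, at 1.44-fold (0.942 to 2.09) and 1.21-fold (0.754 to 1.83). With system development as the wider term, the fold intervals of the 6 lists overlapped. With anatomical structure development some did not. Del/+ up (0.750 to 1.25) and cluster 4 (0.389 to 1.20) lay below Kansl1+/- up (1.27 to 2.02) and cluster 1 (1.31 to 2.49). With multicellular organismal development, cluster 4 (0.420 to 1.288) lay below Kansl1+/- up (1.291 to 2.09) and cluster 1 (1.31 to 2.55). The lists share genes and controls, and no difference between them was tested. System development genes outside nervous system development were above their expected number, beyond counting error, in Kansl1+/- up and cluster 1. Genes annotated both to the nervous system and to another system are not among them, so the development of other systems as a whole was not measured. In Del/+ up and in clusters 2, 3 and 4 the interval included 1. For nervous system development the lower bound was 1.86 or more in each of the 6 lists. A listed term had to pass the p limit, so that bound lies above 1 by construction. The genes outside it had to pass no limit of their own, so the 2 sets of bounds cannot be compared.

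**Figure D4:**
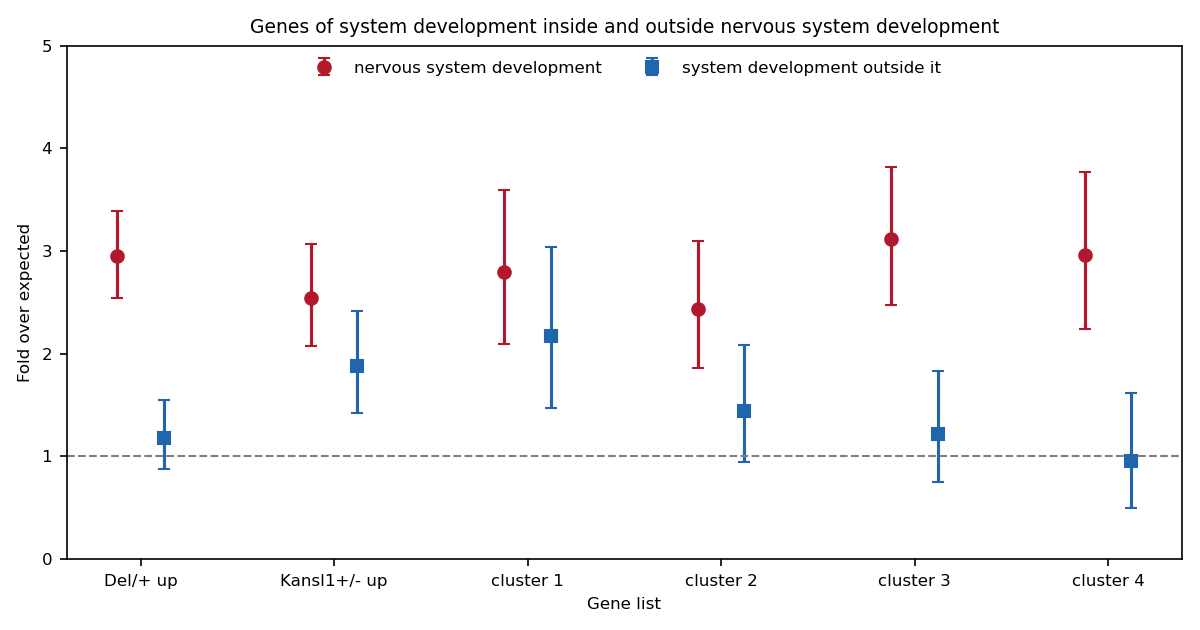
Fold over expected (vertical axis) of nervous system development (circles) and of the system development genes outside it (squares) in the 6 lists of raised genes, with exact 95% intervals and a dashed line at 1. The circles lie between 2.44 and 3.11, while the squares range from 0.954 in cluster 4 to 2.17 in cluster 1.

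A like comparison was made for differentiating cells. Neuron differentiation makes up 30.6% of the cell differentiation genes in the background. It made up 48.7% in Del/+ up (76 of 156), 50.0% in Kansl1+/- up (55 of 110), 51.6% in cluster 1 (32 of 62), 55.2% in cluster 2 (32 of 58) and 43.7% in cluster 3 (31 of 71). The lower bounds of these 5 intervals were between 31.9% and 41.5%, above the background share. Cell differentiation genes outside neuron differentiation were at 1.51-fold in Del/+ up (interval 1.22 to 1.84) and 1.55-fold in Kansl1+/- up (1.19 to 1.96). Cluster 1 had 1.81-fold (1.26 to 2.48), cluster 3 had 1.82-fold (1.34 to 2.39) and cluster 2 had 1.17-fold (0.781 to 1.67). The lower bound of this fold was thus above 1 in these lists except cluster 2. Cell differentiation has no row for cluster 4. Neuron differentiation had to pass the p limit to be listed, while the genes outside it had to pass no limit of their own. A share above the background was thus partly built in.

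Terms for the control of these processes had rows in the lists of raised genes too. Regulation of nervous system development (808 background genes) was listed in 6 lists, from 3.12-fold in cluster 2 (23 genes, 95% interval 2.01 to 4.56) to 3.84-fold in cluster 3 (28 genes, 2.60 to 5.38). Del/+ up held 62 of its genes and Kansl1+/- up 39. In cluster 4 its 19 genes (3.41-fold) were not called (exact hypergeometric test, Bonferroni p = 0.0704). Regulation of neurogenesis (715) held 54 genes of Del/+ up, 37 of Kansl1+/- up, 19 of cluster 1, 22 of cluster 2 and 25 of cluster 3, at 3.37-fold to 3.90-fold. It is not listed for cluster 4, which allows at most 16 genes and 3.24-fold there. That limit lies inside the intervals of the 5 listed folds, so a lower fold in cluster 4 is not shown. Regulation of neuron differentiation (585) held 46, 31, 17, 18 and 21 genes of the same 5 lists, and in cluster 2 its 18 genes were not called (exact hypergeometric test, Bonferroni p = 0.162). In cluster 4 it could have up to 15 genes and 3.71-fold without a row. That is above the folds of Del/+ up (3.60), Kansl1+/- up (3.63) and cluster 2 (3.37), and below those of clusters 1 and 3 (4.26 and 3.97).

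Positive regulation, the set of genes that promote these processes, was listed for fewer lists. Positive regulation of neurogenesis held 32 genes of Del/+ up (3.40-fold), 21 of Kansl1+/- up (3.33-fold) and 17 of cluster 3 (4.37-fold). Positive regulation of nervous system development held 38, 22 and 18 genes of the same lists, and in Kansl1+/- up it was not called (exact hypergeometric test, Bonferroni p = 0.0842). Positive regulation of neuron differentiation was listed for Del/+ up with 29 genes (3.88-fold, 95% interval 2.62 to 5.50) and for cluster 3 with 15 (4.84-fold, 2.75 to 7.80). In Kansl1+/- up it can have at most 17 genes, or 3.39-fold, below both of these folds but inside both intervals. Without a row in clusters 1, 2 and 4 it could reach 4.70-fold, 4.16-fold and 4.65-fold, and positive regulation of neurogenesis 4.08-fold, 3.82-fold and 4.03-fold. These limits lie above the folds of Del/+ up, and below those of cluster 3 but inside their intervals. The missing rows thus do not show lower folds in clusters 1, 2 and 4.

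Negative regulation, the genes that hold these processes back, was listed for Del/+ up. Negative regulation of nervous system development held 22 of its 279 background genes (3.61-fold) and negative regulation of neurogenesis 20 of 257 (3.57-fold, 95% interval 2.19 to 5.45). Both were called (exact hypergeometric test, Bonferroni p = 0.00519 and 0.0224), but the second was lost with 1 gene fewer in the list count (0.0883). Among the 54 regulation of neurogenesis genes of Del/+ up, 59.3% were positive and 37.0% negative regulators, where the background has 60.3% and 35.9%, both inside the 95% intervals (45.0% to 72.4% and 24.3% to 51.3%). In Kansl1+/- up, negative regulation of neurogenesis can have up to 14 genes and 3.73-fold, above the fold of Del/+ up. The empty row does not show that Kansl1+/- differs.

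Terms for regions of the nervous system had rows in 4 of the 6 lists. Central nervous system development (797 background genes) held 53 genes of Del/+ up (3.05-fold), 30 of Kansl1+/- up (2.58-fold, not called, exact hypergeometric test, Bonferroni p = 0.0523), 19 of cluster 1 (3.50-fold) and 28 of cluster 3 (3.89-fold). As a share of nervous system development it was 37.3%, 36.6%, 45.2% and 45.2% in these lists, against 36.2% in the background, which lay inside each interval. Clusters 2 and 4 have no row for central nervous system development, which allows 2.89-fold and 3.27-fold there. Both limits lie above the fold in Kansl1+/- up and inside the intervals of the 4 listed folds, so lower folds there are not shown. Brain development held 38 genes of Del/+ up (2.96-fold, 95% interval 2.1 to 4.0) and 22 of cluster 3 (4.13-fold, 2.64 to 6.09). For Kansl1+/- up the largest possible count was 23 genes, 6.71% of the list and 2.67-fold, which is below the fold in Del/+ up and inside its interval. In clusters 1, 2 and 4 brain development could reach 3.74-fold, 3.17-fold and 3.69-fold without a row, above the fold in Del/+ up.

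The forebrain holds the hippocampus. Forebrain development held 22 of 339 genes of Del/+ up (2.97-fold, 95% interval 1.88 to 4.45). It has no row elsewhere, which allows 3.43-fold in Kansl1+/- up and 4.21-fold to 4.76-fold in the clusters, so a lower fold there is not shown. In the same list hindbrain development held 13 of 135 (4.41-fold, 2.36 to 7.48) and hindbrain morphogenesis 8 of 47, the highest fold of the 19 terms at 7.80 (3.38 to 15.3). None of the 3 was called (exact hypergeometric test, Bonferroni p = 0.131, 0.179 and 0.153). Within brain development, forebrain genes made up 57.9% in Del/+ up and 57.6% in the background, and hindbrain genes 34.2% (19.6% to 51.4%) against 22.9%. In the clusters, hindbrain morphogenesis could have up to 5 genes, or 11.7-fold to 15.6-fold, without being listed. Its absence there says nothing of a lower fold.

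The tables of lowered genes gave upper limits for all 19 terms. Nervous system development can hold at most 57 of 343 genes in Del/+ down (16.6%, 1.77-fold) and at most 74 of 483 in Kansl1+/- down (15.3%, 1.63-fold). Neurogenesis can reach 1.95-fold in Del/+ down and 1.78-fold in Kansl1+/- down, and neuron differentiation 2.17-fold and 1.99-fold. These limits assume that the tables are complete to their p limit. A listed term had to pass the same p limit, so a limit in a list of like or larger size lies below a listed fold by construction. Del/+ down is smaller than Del/+ up, and there the limit of 1.77-fold for nervous system development lies beside 2.95-fold (95% interval 2.54 to 3.39). The difference was not tested. For narrow terms they are loose. Forebrain development, both hindbrain terms and both negative regulation terms could reach 3.43-fold to 8.73-fold in Del/+ down, above their folds in Del/+ up, and hindbrain morphogenesis 7.24-fold in Kansl1+/- down.

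Among the lists of raised genes a term had no row in 44 pairs of term and list. No row named glia or glio. None named astrocytes, oligodendrocytes, myelin, the ependyma, the telencephalon, the cortex, the pallium, the cerebellum or the hippocampus either, where words with these stems were searched for in all 1076 rows.

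The median fold of the neurogenesis terms depended on the sizes of the terms it was set beside, since wide terms reach lower folds than narrow ones in these tables. In Del/+ up it was 3.52, where the median of all listed terms was 3.16. In Kansl1+/- up the medians were 3.32 and 3.05, in cluster 3 they were 3.88 and 3.42, and in these lists the neurogenesis terms were the higher. They were the lower in cluster 1 (3.76 and 3.99), cluster 2 (3.20 and 3.53) and cluster 4 (3.24 and 4.45). With only terms of at most 1000 background genes, the neurogenesis terms had the lower median in all 6 lists, from 4.01 against 4.32 in cluster 3 to 3.37 against 8.20 in cluster 2. Their median size in cluster 4 was 1073 background genes, beside 618 for all its listed terms. No test was made of these medians, since the terms share genes.

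**Figure D5:**
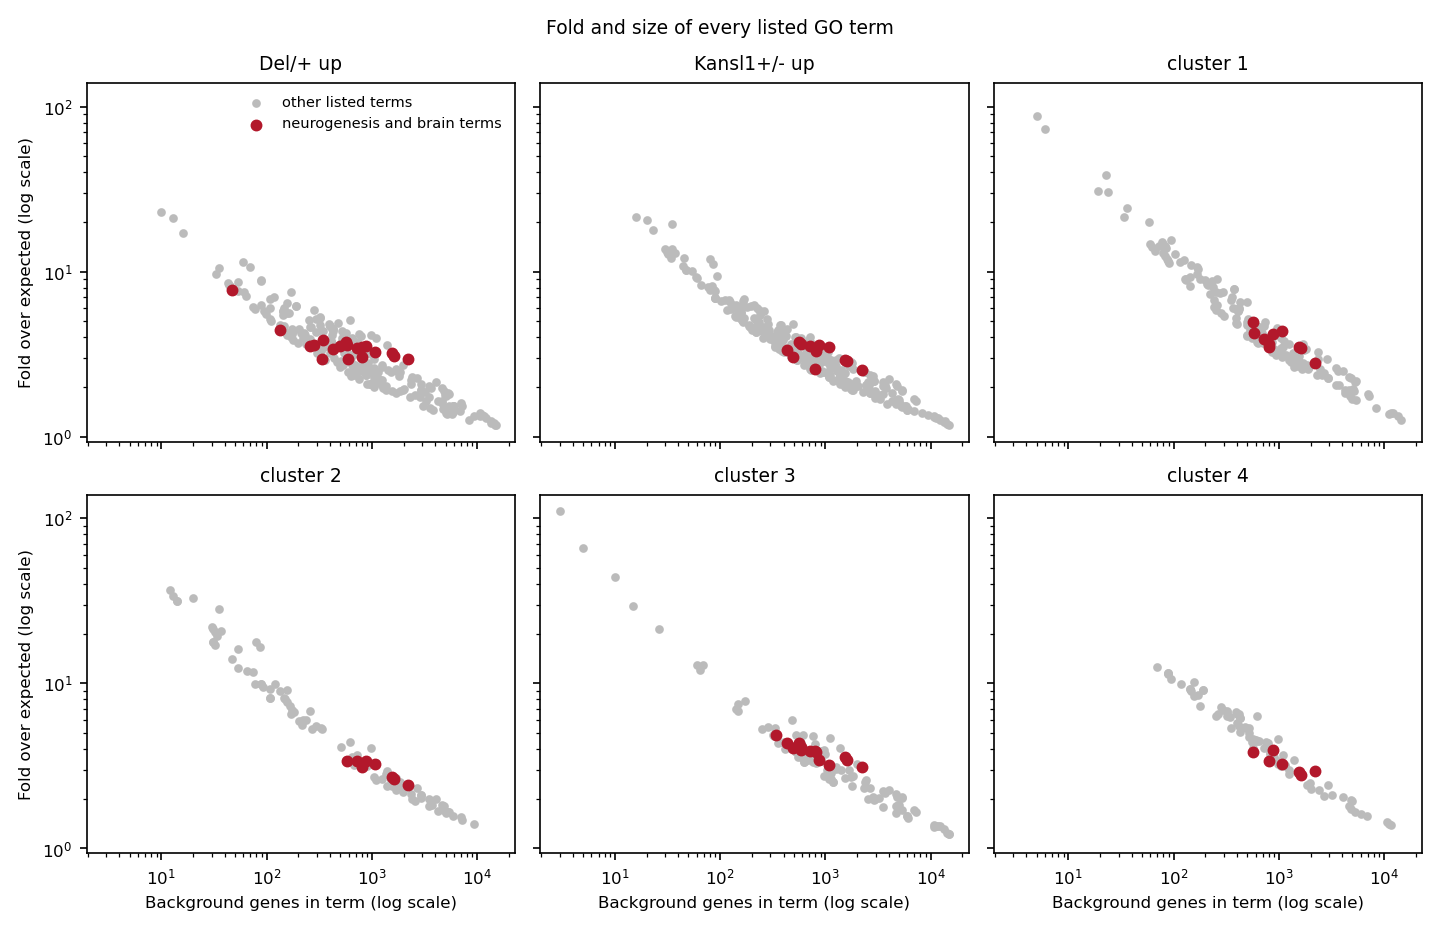
Fold over expected (vertical axis, log scale) against the number of background genes (horizontal axis, log scale) for every listed GO term, with the neurogenesis and brain terms in red and other terms in grey. Folds fall as terms widen, and the red points lie within the band of grey points in the 6 lists.

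The authors also sorted the terms of each table into groups, by a criterion that is not given in the sources used here. Neurogenesis and generation of neurons shared a group in 6 of 6 tables, and nervous system development joined them in 5, the exception being cluster 4. Neuron development was grouped with cell morphogenesis involved in neuron differentiation in 5 of 5 tables. The 3 terms for regulation of nervous system development, neurogenesis and neuron differentiation shared a group in 5 of 5 tables and were in none grouped with neurogenesis itself. Positive and negative regulation fell in separate groups in Del/+ up. In that list both hindbrain terms stood with presynaptic membrane (10 of 61 genes), synapse organization (15 of 147), synapse assembly (10 of 64) and social behavior (8 of 46). The brain and forebrain terms were in another group, with central nervous system development.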

How the data were processed

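H3K4me3 ChIP-seq libraries of 12 hippocampi were mapped with BWA 0.6.2 to mm9, per the submitters' processing notes. Per the study's methods, the authors called peaks with a C++ script, took promoters with a DESeq2 p under 0.01 (no correction is named), and tested GO terms by hypergeometric tests. The 8 deposited tables hold, per term, gene counts of list and background, p-values, Bonferroni and Benjamini values, folds, and an expected number, which is a score computed by the authors. The authors' p-values, Bonferroni values and expected numbers were used to derive the sizes and the number of terms tested. Their p-values and folds are not printed, apart from a deposited p given below as a limit. The number of unused per-sample columns was 0.

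List sizes, the background (23468) and the terms tested (21172) were derived from the deposited values. They returned 1076 of 1076 expected numbers within 0.0051. Of the 70 rows, 59 had a p within 2% of the deposited one, and the other 11 had a deposited p of 2.09e-15 or less. Fold, interval and one-sided exact p were recomputed from the gene counts. For a term without a row, the limit is the largest count with p at or above 1e-05. The procedure was tested on simulated data. Scripts ran in Python 3.11.15 with scipy 1.17.1, numpy 2.4.6 and, for figures, matplotlib 3.10.9.

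The 19 terms and the tests were chosen with earlier results of these data known. Every term that the name rule took is named, with the wider terms used as denominators. The word search was added with the values in view. The alternatives tried were two-sided p-values, a list count reduced by 1 gene (EASE), a stricter and a looser correction, terms with at most 1000 genes, the printed expected numbers, other wider terms and another listing limit. Beyond the exact hypergeometric test of each term, no test was run over the 19 terms together and none between lists. Sequences are not shown, because the tables name no genes.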

Additional observations from a re-analysis of the deposited data

How the results depend on the processing

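The two-sided test left the 6 counts of called terms as they were, and the EASE count gave 0.875 to 0.993 times each fold. Keeping only terms with at most 1000 background genes removes the 4 widest terms, called in each of the 6 lists, and so lowered the number of called terms to 12 in Del/+ up, 6 in Kansl1+/- up and 6, 3, 10 and 1 in clusters 1 to 4. With multicellular organismal development as the wider term, the share of nervous system genes relative to the background was 1.49 in Del/+ up and 1.63 in cluster 4, and with anatomical structure development it was 1.57 and 1.70, where system development gave 1.37 and 1.44. Both the EASE count and a threshold of 0.01 ended 9 calls: central nervous system development, regulation of nervous system development and regulation of neuron differentiation in cluster 1, regulation of nervous system development and of neurogenesis in cluster 2, positive regulation of nervous system development and of neuron differentiation in cluster 3, positive regulation of neurogenesis in Kansl1+/- up and negative regulation of neurogenesis in Del/+ up. The counts of called terms ran from 5 to 15 with the EASE count and with a threshold of 0.01, and from 7 to 19 with the Benjamini-Hochberg bound. No paired analysis was possible because the tables hold no value per sample. For the same reason no replicate could be left out, and depth, batch and litter could not be examined.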

Other observations

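A few terms of neurons outside the name rule were picked after their values had been seen. Neurofilament, the intermediate filament of mature neurons, held 5 of its 10 background genes in Del/+ up and 4 in cluster 3 (exact hypergeometric test, Bonferroni p = 0.0236 and 0.0276), and neurofilament bundle assembly held 3 of 3 in cluster 3 (p = 0.0154, same exact test). Transmission of nerve impulse held 15 of 60 in Del/+ up and 7 in cluster 3, at 11.5-fold and 12.9-fold. Neuron recognition held 8 of 35 in Del/+ up (10.5-fold). Neuronal cell body, the part of a neuron around its nucleus, has 573 background genes and held 53 in Del/+ up (4.24-fold), 23 in cluster 3 (4.44-fold), 18 in cluster 2 and 16 in cluster 4, and the last 2 were not called (exact hypergeometric test, Bonferroni p = 0.122 and 0.0513). Head development, a term wider than brain development, held 39 and 22 of its 626 genes in Del/+ up and cluster 3, where brain development held 38 and 22. Counts of 3 to 8 genes carry wide counting error, and which genes they are is not known from the tables.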
